A study of Mus musculus with 12 samples.

Results

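The genes described here are 30 genes of cholesterol and fatty acid synthesis chosen by their place in the pathway, out of 35492 gene symbols measured. They comprise 7 genes that lead from acetyl-CoA units through mevalonate to squalene (Hmgcs1, Mvk, Pmvk, Mvd, Idi1, Fdps and Fdft1) and 10 that turn squalene into cholesterol (Sqle, Lss, Cyp51, Tm7sf2, Msmo1, Nsdhl, Hsd17b7, Ebp, Sc5d and Dhcr7). A further 5 regulate the pathway (Srebf1, Srebf2, Scap, Insig1 and Insig2), Stard4 and Acat2 serve sterol transport and the supply of acetoacetyl-CoA, and 6 make fatty acids (Acly, Acaca, Fasn, Elovl6, Scd1 and Scd2). All 30 were found in the files and all 30 passed the filter on low values. RNA was sequenced from CD4+ T cells of C57BL/6J mice aged 7 weeks, in 12 libraries that fall into 4 groups of 3. Tfh_TILS cells were sorted as CD4+ CXCR5+ PD1+, markers by which follicular helper T (Tfh) cells are recognised, from tumours of the mouse colon carcinoma line MC38. Tfh_OTII cells were naive T cells from spleen and lymph nodes of OT-II mice, in which a transgene fixes the T cell receptor to recognise an ovalbumin peptide, grown in the Tfh condition, and Tfh_Vitro cells were wild-type naive CD4+ cells grown in the same condition. That condition held IL-6 and IL-21 at 50 ng/ml each with antibodies against IL-4, IFNγ and TGFβ at 10 µg/ml each. Th1_Vitro cells were wild-type naive CD4+ cells grown with IL-12 at 10 ng/ml and the anti-IL-4 antibody at 10 µg/ml. All 3 cultures used plates coated for CD3 and CD28 stimulation. The titles give 48 h for Tfh_OTII and 24 h for Tfh_Vitro and Th1_Vitro, whereas the treatment notes give 48 h for the Tfh and the Th1 culture alike.

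Cells make cholesterol from acetyl-CoA by way of mevalonate, squalene and lanosterol, and intermediates of the route also feed isoprenoids such as ubiquinone and the lipid anchors of small GTPases. The genes are switched on together by the SREBP transcription factors, which are held in the endoplasmic reticulum with their escort SCAP and the INSIG proteins while sterol is plentiful. SREBP-2, from Srebf2, acts mainly on cholesterol genes and SREBP-1, from Srebf1, mainly on fatty acid genes. T cells raise both programmes when they are activated and need membrane to divide.

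The values are TPM, transcript abundances adjusted for transcript length that sum to the same total in each library. In Th1_Vitro a few repeat-like gene models took a large part of that total. The 10 most abundant models held 25.3 ± 6.30% of TPM in Tfh_TILS, 15.0 ± 0.633% in Tfh_OTII, 22.9 ± 1.67% in Tfh_Vitro and 61.1 ± 8.99% in Th1_Vitro (SD, n = 3 each), and every other gene is pushed down accordingly in Th1_Vitro as deposited. TPM were therefore divided by a median-of-ratios size factor, and levels below are such scaled TPM unless "as deposited" is written. Sequencing depth is unknown, since TPM carry none. Symbols listed at 0 made up 35.7, 19.5 and 41.4% in Th1_Vitro replicates 1, 2 and 3, against 8.20 to 23.9% in all other libraries. Low values in Th1_Vitro are the more uncertain for it. Between libraries of a group the Spearman correlation over genes ran from 0.826 to 0.920. The T cell genes Cd3e and Cd4 were at 79.6 scaled TPM or more in every library. Cxcr5 ranged from 7.79 to 12.9 and Bcl6 from 9.64 to 13.3 scaled TPM in Tfh_TILS, while no library of the other groups passed 6.73 for Cxcr5 or 5.88 for Bcl6. Il21, at 46.6 to 68.0 in Tfh_OTII and 58.1 to 89.7 in Tfh_Vitro, was at 8.11 or less in Tfh_TILS and at 12.5 or less in Th1_Vitro, where Tbx21, the Th1 regulator, was at 18.2 to 38.7, against 18.3 or less elsewhere. In the Tfh_TILS libraries, 12 macrophage and monocyte genes summed to 65.5, 583 and 160 scaled TPM in replicates 1, 2 and 3, against 22.8 or less in all other libraries. Tfh_TILS replicate 2, which had the highest of these sums, was the lowest of its group for 20 of the 30 genes. Its sum over 7 T cell genes was also the highest of its group, at 1616, against 1148 and 1057 in replicates 1 and 3. B cell genes summed to 27.6 to 29.5 in Tfh_TILS, 10.7 to 21.3 in Tfh_OTII, 16.6 to 19.6 in Tfh_Vitro and 32.9 to 39.6 in Th1_Vitro, and epithelial genes to 11.1 or less everywhere. The 2 CD8 T cell genes, Cd8a and Cd8b1, summed to 9.08 to 10.95 in Tfh_TILS and 18.7 to 20.5 in Tfh_OTII. Their sums were 12.25 to 14.7 in Tfh_Vitro and 14.7 to 19.0 in Th1_Vitro. The 7 T cell genes summed to 1057 to 1616 in Tfh_TILS, 2267 to 3400 in Tfh_OTII, 1108 to 1521 in Tfh_Vitro and 902 to 1599 in Th1_Vitro. Much of the Tfh_OTII sum was Trac alone, at 1337, 1774 and 1938 there, against 219 to 605 in all other libraries.

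The DNA just before the start of 4 of these genes is shown because each of them fell in Tfh_TILS against Tfh_OTII and has an entry in the RefSeq promoter table. Each line is the 250 bases before the start, 5′ to 3′ on the gene's strand, at GRCm38.p6: chr13:119690101-119690350 (plus strand) for Hmgcs1, chr5:114444019-114444268 (plus) for Mvk, chr3:89454291-89454540 (plus) for Pmvk and chr19:6067851-6068100 (minus) for Tm7sf2. Capitals mark the sterol regulatory element in the form TCACNCCAC and the NF-Y box CCAAT, on either strand, so that CCAAT on the other strand reads ATTGG.
Hmgcs1: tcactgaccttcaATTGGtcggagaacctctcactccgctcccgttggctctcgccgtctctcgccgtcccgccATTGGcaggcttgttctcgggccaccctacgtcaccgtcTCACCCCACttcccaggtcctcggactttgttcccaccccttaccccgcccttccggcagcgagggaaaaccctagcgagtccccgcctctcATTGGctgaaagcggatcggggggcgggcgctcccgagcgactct
Mvk: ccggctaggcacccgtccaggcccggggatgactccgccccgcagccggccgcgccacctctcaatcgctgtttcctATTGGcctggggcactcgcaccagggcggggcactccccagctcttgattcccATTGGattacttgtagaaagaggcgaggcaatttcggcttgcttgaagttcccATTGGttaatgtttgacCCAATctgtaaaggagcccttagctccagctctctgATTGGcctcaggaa
Pmvk: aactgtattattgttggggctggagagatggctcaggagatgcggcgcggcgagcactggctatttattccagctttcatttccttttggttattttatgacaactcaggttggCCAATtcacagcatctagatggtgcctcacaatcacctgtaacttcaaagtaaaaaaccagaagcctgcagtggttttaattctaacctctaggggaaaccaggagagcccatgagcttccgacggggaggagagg
Tm7sf2: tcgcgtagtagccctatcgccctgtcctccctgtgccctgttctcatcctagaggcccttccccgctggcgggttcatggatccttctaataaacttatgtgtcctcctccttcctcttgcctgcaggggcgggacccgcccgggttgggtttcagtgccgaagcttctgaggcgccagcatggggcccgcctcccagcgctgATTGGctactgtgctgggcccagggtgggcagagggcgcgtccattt
Hmgcs1 held TCACCCCAC from 137 to 129 bases before the start, with 3 CCAAT boxes, and Mvk held 5 CCAAT boxes. Pmvk and Tm7sf2 held 1 each, and a further Pmvk entry that is not shown, at chr3:89459321-89459570 (plus), held 0. Of the 30 genes, 24 had a promoter entry, and Fdps, Fdft1, Sqle, Stard4, Scd1 and Scd2 had none. A gene with several entries was counted for a motif if any of them held it. The element TCACNCCAC was found in 1 of the 24 (4.17%) and in 1.22% of 27025 genes. CCAAT was found in 19 of 24 (79.2%) and in 37.5% of all genes, and the GC box GGGCGG in 20 of 24 (83.3%) and in 35.4%. The 27025 genes were not limited to those past the filter on low values, which all 24 passed. Shares among such genes alone were not counted. CCAAT and TCACNCCAC did not overlap in the sequences shown. Letters such as these describe the sequence and do not show that a factor binds there.

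**Figure D1:**
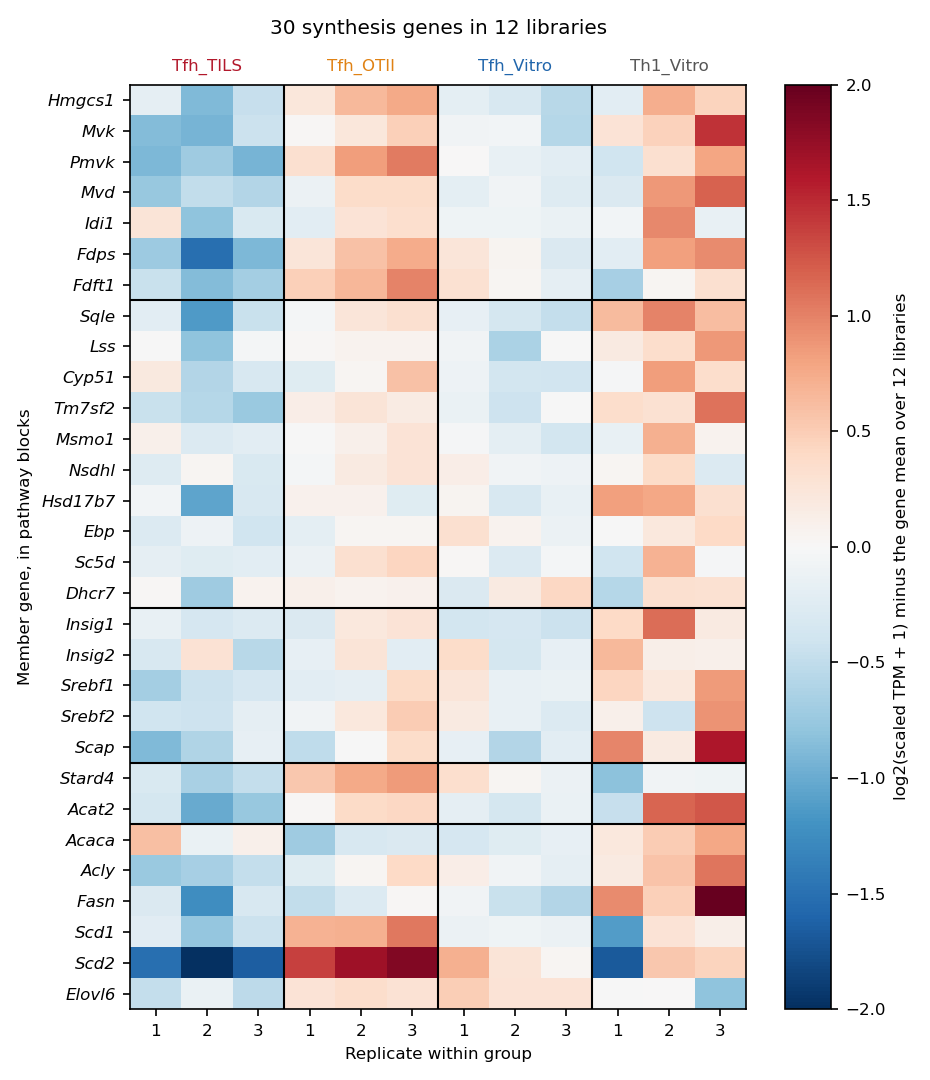
Each square is 1 gene in 1 library, coloured by log2(scaled TPM + 1) minus that gene's mean over the 12 libraries, with the colours ending at 2 in either direction. Rows follow the pathway from Hmgcs1 down to Dhcr7, then the regulators, sterol transport and supply, and fatty acid synthesis. The Tfh_TILS columns are blue for most rows, and Scd2 is blue in all 3 of them and red in all 3 Tfh_OTII columns.

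Across the 4 groups, the group mean was lowest in Tfh_TILS for 26 of the 30 genes and highest in Th1_Vitro for 20, in Tfh_OTII for 8 and in Tfh_Vitro for 2. As deposited this order changed, with Tfh_OTII highest for 25 genes and Th1_Vitro lowest for 18, so statements against Th1_Vitro depend on the scale. The 30 genes summed to 428 to 573 scaled TPM in Tfh_TILS, 705 to 991 in Tfh_OTII, 583 to 712 in Tfh_Vitro and 722 to 1183 in Th1_Vitro. Tfh_TILS and Tfh_OTII did not overlap on this sum or on its form as deposited, which was 604 to 676 in Tfh_TILS and 1010 to 1039 in Tfh_OTII. After scaling, Tfh_OTII replicate 1 was the lowest of its group for 27 of the 30 genes and replicate 3 the highest for 22. Sums in Tfh_OTII replicates 1, 2 and 3 were 705, 873 and 991 scaled TPM, against 1010, 1018 and 1039 as deposited. The spread within Tfh_OTII thus depended on the scale too. In RNA from sorted or cultured cells, fewer cells with a transcript and less of it per cell cannot be told apart.

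The comparison of Tfh_TILS with Tfh_OTII asks how cells of the Tfh phenotype taken from a tumour differ from OT-II cells of the Tfh culture. Of the 17 enzymes of the cholesterol pathway, 6 fell in Tfh_TILS and 11 did not pass the test, and Stard4 and both desaturases fell too. Of the 30 genes, 9 fell and 0 rose in Tfh_TILS (limma, Benjamini-Hochberg adjusted p under 0.05 over 21946 genes), where 8.56% of all genes fell and 7.47% rose. The fitted difference was below 0 for 29 of 30, Acaca alone being above 0, and their median was -0.518 on the log2 scale, against 0.00194 over all genes tested. Among the 12460 genes with a group mean of at least 5 scaled TPM, 1935 fell and 1583 rose. These are larger shares than over all genes, and the median there was -0.0923. By role, 5 of 7 genes up to squalene fell, 1 of 10 from squalene to cholesterol, 0 of 5 regulators, Stard4 of the transport and supply genes, and 2 of 6 fatty acid genes.

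Of the genes up to squalene, Hmgcs1, whose enzyme joins acetyl-CoA and acetoacetyl-CoA at the start of the mevalonate route, was at 34.3, 20.7 and 27.9 scaled TPM in Tfh_TILS, against 45.5, 61.5 and 66.5 in Tfh_OTII. The groups did not overlap, and the log2 fold change was -1.05 ± 0.28 (SE, adjusted p = 0.0210). Mvk, mevalonate kinase, was at 2.65, 2.49 and 3.98 in Tfh_TILS, against 5.77, 6.85 and 8.33 in Tfh_OTII (log2 fold change -0.99 ± 0.31, adjusted p = 0.0481). Pmvk, the kinase of the next step, was at 7.23, 8.30 and 7.01 in Tfh_TILS, against 18.0, 26.3 and 30.3 in Tfh_OTII. All 3 tumour libraries lay below every Tfh_OTII library for both kinases, and Pmvk was 3.31-fold lower in Tfh_TILS (log2 fold change -1.58 ± 0.29, adjusted p = 0.00311).

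Fdps, which makes farnesyl diphosphate, the branch point towards sterols and isoprenoids, was at 24.3, 13.7 and 21.4 scaled TPM in Tfh_TILS, against 48.7, 62.1 and 68.8 in Tfh_OTII. Its mean was 3.02-fold lower in Tfh_TILS (log2 fold change -1.57 ± 0.32, adjusted p = 0.00545). Fdft1, squalene synthase, which commits farnesyl units to sterols, was at 15.5, 11.2 and 13.0 in Tfh_TILS, against 30.2, 34.4 and 43.6 in Tfh_OTII (log2 fold change -1.38 ± 0.27, adjusted p = 0.00445). Neither gene overlapped between the groups. Idi1, the isomerase that acts just before Fdps, was at 56.5, 26.6 and 38.1 in Tfh_TILS, against 40.4, 57.3 and 59.5 in Tfh_OTII. Its ranges overlapped and it did not pass the test (95% interval of the log2 difference -1.11 to 0.29). The ratio of Fdps to Idi1 TPM within a library, which no scaling can change, was 0.430, 0.514 and 0.562 in Tfh_TILS and 1.21, 1.08 and 1.16 in Tfh_OTII, so the 2 neighbouring steps were not shifted by the same factor. This ratio was picked after the values were seen. With 3 libraries against 3 an exact permutation test cannot go below 0.10, and none was run on it.

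Beyond squalene, Sqle, squalene epoxidase, which catalyses a rate-limiting step of the later pathway, was at 16.1, 7.98 and 13.5 scaled TPM in Tfh_TILS, against 18.3, 22.3 and 23.6 in Tfh_OTII. The ranges did not overlap, but the adjusted p was 0.0532 after scaling and 0.0451 as deposited, either side of the threshold. Tm7sf2, a sterol reductase, was at 5.45, 4.90 and 4.24 in Tfh_TILS, against 8.62, 9.42 and 8.81 in Tfh_OTII, and fell by 0.77 on the log2 scale (adjusted p = 0.0485, or 0.136 as deposited). For the other 8 genes of this stretch, log2 differences ran from -0.46 for Hsd17b7 to -0.22 for Ebp, all below 0 and none past the test.

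Among the regulators, Srebf2 was at 38.6, 37.9 and 45.1 scaled TPM in Tfh_TILS, against 48.6, 59.3 and 72.9 in Tfh_OTII. Srebf1 was at 15.6, 18.6 and 20.0 in Tfh_TILS, against 22.0, 22.5 and 33.5 in Tfh_OTII. For both transcription factors the ranges were apart, but the tests did not pass (95% intervals -1.19 to 0.10 for Srebf2 and -1.001 to 0.04 for Srebf1). Scap was at 10.6, 13.0 and 18.1 in Tfh_TILS and 14.0, 20.1 and 26.3 in Tfh_OTII. Insig1, itself a target of SREBP, was at 19.3, 16.8 and 17.5 in Tfh_TILS and 17.4, 25.0 and 26.1 in Tfh_OTII. Insig2, which is regulated apart from Insig1, was at 9.45, 14.9 and 7.89 in Tfh_TILS and 10.7, 14.7 and 10.3 in Tfh_OTII. Ranges of all 3 overlapped, with log2 differences of -0.49, -0.32 and -0.16 for Scap, Insig1 and Insig2.

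Stard4, a carrier that moves cholesterol between membranes, was at 20.4, 16.0 and 18.1 scaled TPM in Tfh_TILS, against 37.7, 43.8 and 46.7 in Tfh_OTII (log2 fold change -1.19 ± 0.24, adjusted p = 0.00523). The groups were well apart and the fall kept its call under every alternative tried. Acat2, the cytosolic thiolase that makes acetoacetyl-CoA, was at 2.95 to 5.21 in Tfh_TILS and 7.08 to 9.58 in Tfh_OTII and did not pass (adjusted p = 0.104).

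In fatty acid synthesis the 2 desaturases fell and the gene for the committing carboxylase did not. Scd2, a stearoyl-CoA desaturase that puts a double bond into saturated fatty acids, was at 10.6, 6.80 and 9.44 scaled TPM in Tfh_TILS, against 83.1, 105 and 117 in Tfh_OTII. It was 11.4-fold lower in Tfh_TILS, the largest change of the 30 genes in this comparison (log2 fold change -3.37 ± 0.46, 95% interval -4.38 to -2.37, adjusted p = 0.000559). Its relative Scd1, the form known best from liver and fat, was far lower throughout, at 1.65, 0.810 and 1.29 in Tfh_TILS, against 4.02, 4.06 and 5.43 in Tfh_OTII (log2 fold change -1.30 ± 0.34, adjusted p = 0.0210). Both desaturases kept the groups apart. Acaca, acetyl-CoA carboxylase, was at 74.1, 43.9 and 52.2 in Tfh_TILS, against 29.0, 38.7 and 39.4 in Tfh_OTII, higher in every tumour library but not past the test (log2 difference 0.63 ± 0.24, adjusted p = 0.0930). Fasn, fatty acid synthase, was at 27.2, 13.5 and 26.7 in Tfh_TILS and 23.4, 27.5 and 34.2 in Tfh_OTII, with overlapping ranges and a 95% interval from -1.24 to 0.50. Elovl6, which lengthens the fatty acid before desaturation, was at 5.96, 7.80 and 5.71 in Tfh_TILS and 10.7, 11.4 and 10.8 in Tfh_OTII, and Acly, which makes cytosolic acetyl-CoA from citrate, at 33.8 to 40.9 and 48.6 to 75.7. Ranges of both were apart and neither passed (adjusted p = 0.0786 for Elovl6 and 0.0806 for Acly).

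**Figure D2:**
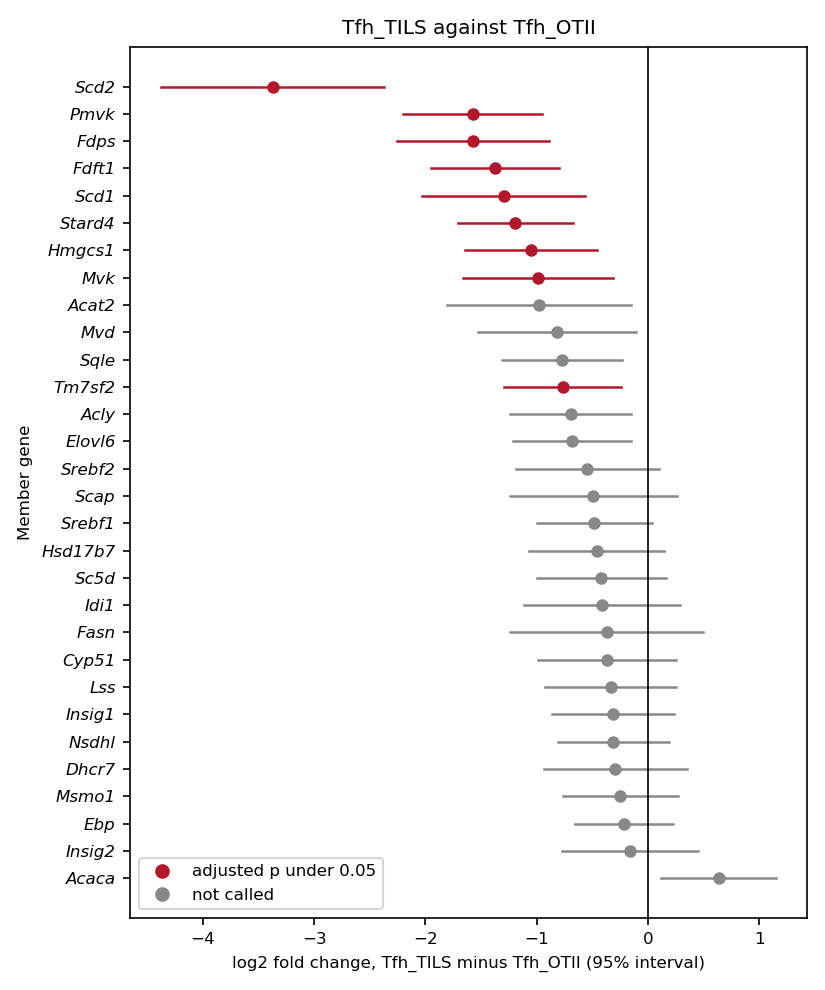
Log2 fold change of each of the 30 genes, Tfh_TILS minus Tfh_OTII, on scaled TPM, with limma's 95% interval. Red points are the 9 genes with an adjusted p under 0.05, all to the left of 0, and Acaca at the foot is the single gene to the right of 0.

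As deposited, 8 of the 30 genes fell and 0 rose, where 7.29% of all genes fell and 7.97% rose. Scd2, Pmvk, Fdps, Fdft1 and Stard4 kept their call in all alternatives run, and without Tfh_TILS replicate 2, the library with the highest macrophage sum, these 5 were the genes still called. The same 5 were left without Tfh_TILS replicate 3, Tfh_OTII replicate 2 or Tfh_OTII replicate 3. Hmgcs1 and Scd1 lost the call without each of these 4 libraries (adjusted p up to 0.0940 and 0.0921), and Mvk and Tm7sf2 without any of the 6 (up to 0.174 and 0.145). Of the macrophage list, 8 of 12 genes rose in Tfh_TILS against Tfh_OTII, with 3 of 8 B cell and 2 of 6 dendritic cell genes. In the same comparison 1 of 7 T cell genes and 1 of 2 CD8 T cell genes fell. The part of such cells in these results was not tested. The groups also differ in tissue, sort, culture and genotype, which cannot be told apart here.

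Ratios within a library set Scd2 against the other fatty acid genes. The ratio of Scd2 to Acaca TPM was 0.142, 0.155 and 0.181 in Tfh_TILS, 2.86, 2.70 and 2.97 in Tfh_OTII, 1.38, 0.933 and 0.754 in Tfh_Vitro and 0.165, 0.677 and 0.525 in Th1_Vitro. Tfh_OTII was above all other libraries, and Tfh_TILS was below all but Th1_Vitro replicate 1, which lay inside its range. The ratio of Scd2 to Fasn was 0.389, 0.503 and 0.354 in Tfh_TILS, 3.55, 3.81 and 3.42 in Tfh_OTII, 1.65, 1.56 and 1.49 in Tfh_Vitro and 0.141, 0.989 and 0.263 in Th1_Vitro, whose spread took in all 3 Tfh_TILS libraries. Scd2 exceeded Scd1 in all 12 libraries, by 6.41- to 8.39-fold in Tfh_TILS and by 17.2- to 28.3-fold in the cultured groups. Of the TPM of the 30 genes, Scd2 held 1.59 to 1.84% in Tfh_TILS, 11.8 to 12.0% in Tfh_OTII, 5.58 to 7.35% in Tfh_Vitro and 1.28 to 4.67% in Th1_Vitro. Acaca held 10.1 to 12.9% in Tfh_TILS and 3.97 to 4.43% in Tfh_OTII. These ratios and shares are descriptions, chosen after the values were seen, and carry no test.

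**Figure D3:**
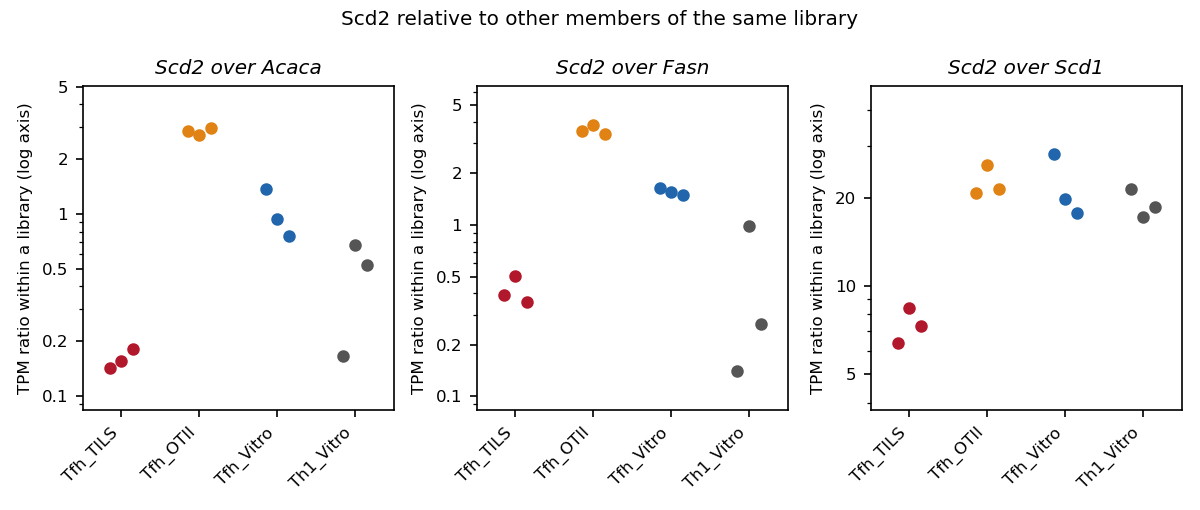
Ratio of Scd2 TPM to Acaca, Fasn and Scd1 TPM within each library, on log axes, 1 point per library. Scaling does not change these ratios. Tfh_OTII lies highest for Acaca and Fasn, and the 3 Tfh_TILS points lie below all others for Scd1.

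Tfh_TILS against Tfh_Vitro sets the T cells sorted from tumours beside wild-type cells of the Tfh culture. These groups differ in tissue, sort and culture, which cannot be told apart. Scd2 alone passed, at 10.6, 6.80 and 9.44 scaled TPM in Tfh_TILS, against 52.4, 37.9 and 32.5 in Tfh_Vitro. It was 4.58-fold lower in Tfh_TILS (log2 fold change -2.07 ± 0.46, adjusted p = 0.0365). Thus 1 of 30 genes fell and 0 rose, where 1.16% of all genes fell and 1.17% rose, and the same counts were found as deposited (0.944% and 1.15%). The call ended without replicate 2 or 3 of Tfh_TILS or without any replicate of Tfh_Vitro, and over all 6 libraries left out in turn the adjusted p ran from 0.0453 to 0.171. It also ended with trimmed-mean scaling, with a pseudocount of 0.1 and with no filter. Of the macrophage list, 7 of 12 genes rose in Tfh_TILS, and their part in this result was not tested.

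The next lowest difference was that of Fdps, at 24.3, 13.7 and 21.4 scaled TPM in Tfh_TILS, against 48.4, 42.2 and 33.4 in Tfh_Vitro (log2 difference -1.05 ± 0.32, adjusted p = 0.118). Pmvk, at 14.5, 12.8 and 12.2 in Tfh_Vitro, Fdft1, at 26.6, 22.0 and 18.8, and Elovl6, at 12.6, 10.7 and 10.7, were each above all 3 tumour libraries without passing the test. Hmgcs1 was at 33.9, 31.0 and 26.1 in Tfh_Vitro, inside the range of Tfh_TILS, with a 95% interval of the log2 difference from -0.75 to 0.45. Acaca was again higher in Tfh_TILS, against 37.9, 40.7 and 43.1 in Tfh_Vitro, with ranges apart but an adjusted p of 0.479. In all, 26 of the 30 fitted differences were below 0, with a median of -0.325 on the log2 scale, against 0.00228 over all genes.

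Tfh_OTII against Tfh_Vitro compares the same culture from OT-II and wild-type mice. None of the 30 genes passed the limma test, where 0.729% of all genes rose and 1.34% fell, although 6 were higher at an unadjusted p under 0.05 and 0 lower. The 6 were Scd2, Scd1, Hmgcs1, Pmvk, Fdft1 and Stard4, and each was higher in every Tfh_OTII library than in any Tfh_Vitro library. Scd2 was at 83.1, 105 and 117 scaled TPM in Tfh_OTII, against 52.4, 37.9 and 32.5 in Tfh_Vitro, a log2 difference of 1.30 ± 0.46 (adjusted p = 0.217). Scd1 was at 4.02, 4.06 and 5.43 in Tfh_OTII and at 1.85, 1.91 and 1.84 in Tfh_Vitro (log2 difference 0.93 ± 0.34, adjusted p = 0.233). Hmgcs1, at 45.5, 61.5 and 66.5 in Tfh_OTII and at 33.9, 31.0 and 26.1 in Tfh_Vitro, had the lowest adjusted p, 0.139. Differences for Pmvk, Fdft1 and Stard4 were 0.84, 0.66 and 0.63.

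Fitted differences were above 0 for 26 of the 30, among them all 7 genes up to squalene, with a median of 0.311, against 0.0182 over all genes. Of the regulators, Srebf1 and Insig2 had differences of 0.01 each, with Srebf1 at 30.3, 23.0 and 23.1 scaled TPM in Tfh_Vitro and a 95% interval of the difference from -0.51 to 0.53, and Insig2 at 15.9, 9.28 and 10.7 and an interval from -0.60 to 0.62. Srebf2 was at 57.9, 46.2 and 42.0, Scap at 17.9, 13.2 and 17.4 and Insig1 at 16.3, 16.8 and 15.6 in Tfh_Vitro, with differences of 0.30, 0.27 and 0.45. Insig1 in Tfh_Vitro was thus below all Tfh_OTII libraries, without passing (adjusted p = 0.544). When these 2 groups were fitted alone, Hmgcs1, Scd1 and Scd2 rose, where 2.5% of all genes rose and 3.55% fell. As deposited, 0 of the 30 passed, where 0.987% of all genes rose and 1.39% fell. OT-II genotype and the culture time that the titles give run together in this comparison and cannot be told apart.

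**Figure D4:**
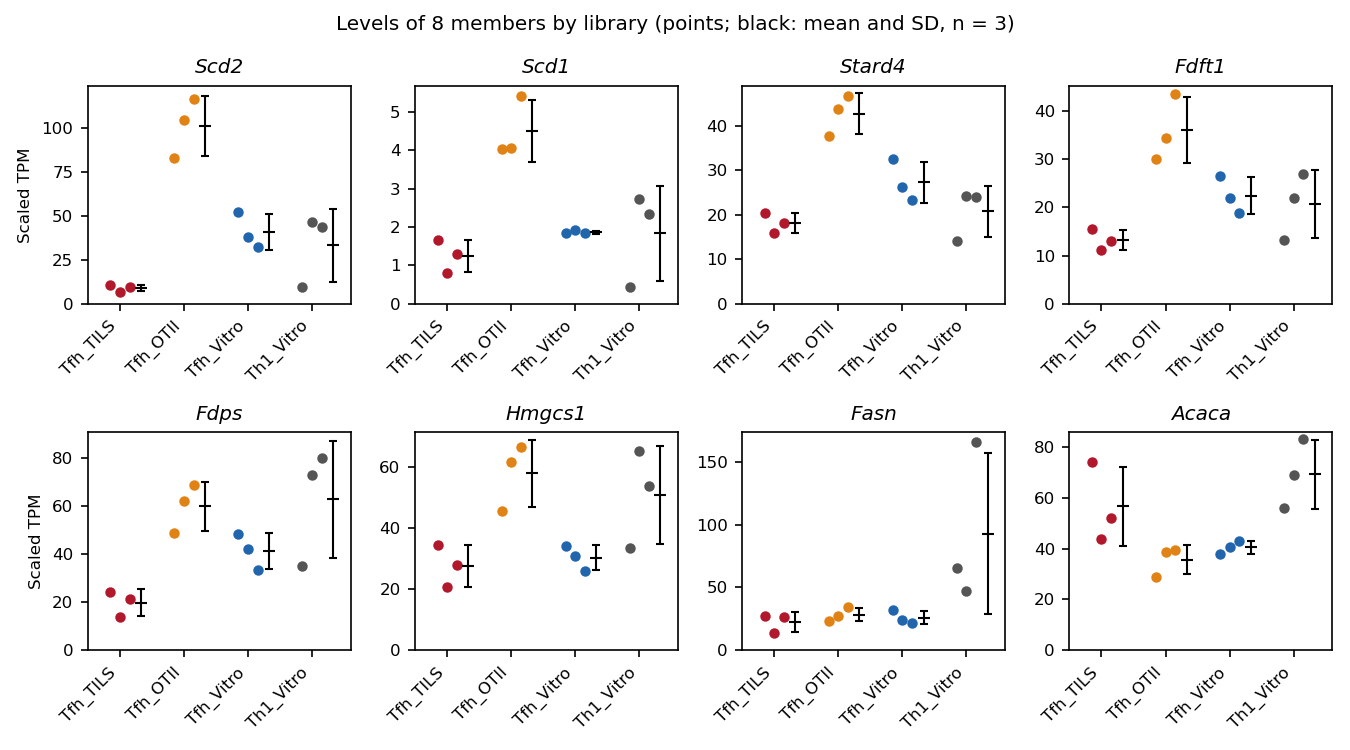
Scaled TPM of 8 of the genes in each library (coloured points), with the mean and SD of the 3 libraries in black. Scd2 and Stard4 are highest in the 3 Tfh_OTII libraries, and Fasn reaches 166 in Th1_Vitro replicate 3.

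Comparisons with Th1_Vitro turn on the scale. As deposited, the median log2 difference of all genes tested was 0.872 for Tfh_TILS, 0.786 for Tfh_OTII and 0.778 for Tfh_Vitro against Th1_Vitro, and after scaling it was 0.110, 0.0736 and 0.0872. Gm10800, a repeat-like gene model, alone held 8.22 ± 5.19% of TPM in Tfh_TILS, 0.165 ± 0.112% in Tfh_OTII, 5.16 ± 3.21% in Tfh_Vitro and 32.0 ± 9.70% in Th1_Vitro (SD, n = 3 each). A gene is said here to have risen or fallen against Th1_Vitro only where it passed in the same direction on both scales. This rule weighs on falls alone. All genes higher after scaling (2378 for Tfh_TILS, 2794 for Tfh_OTII and 2005 for Tfh_Vitro) passed as deposited too, so it adds nothing to a rise. Of genes lower after scaling, it kept 128 of 1683, 266 of 1840 and 118 of 1227, so few falls could pass it. The Th1_Vitro libraries also differed among themselves, replicate 1 being the lowest of its group for 18 of the 30 genes and replicate 3 the highest for 15.

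Tfh_OTII against Th1_Vitro gave 4 genes that rose on both scales: Scd2, Scd1, Stard4 and Fdft1. These groups differ in OT-II genotype, in cytokines and antibodies and in the culture time that the titles give, which cannot be told apart. Of the 21537 genes tested on both scales, 13.0% rose on both and 1.24% fell on both, so the share of the 30 that rose is near that of all genes. After scaling, 4 of 30 were called higher and 2 lower, where 12.7% of all genes were higher and 8.38% lower, and as deposited 17 and 0, where the shares were 42.7% and 1.16%. Scd2 was at 83.1, 105 and 117 scaled TPM in Tfh_OTII, against 9.26, 46.7 and 43.7 in Th1_Vitro (log2 fold change 1.86 ± 0.46, adjusted p = 0.0129, and 2.93 as deposited). Scd1 was at 4.02, 4.06 and 5.43 in Tfh_OTII, against 0.430, 2.72 and 2.35 in Th1_Vitro (1.07 ± 0.34, adjusted p = 0.0414, and 1.73 as deposited). Both desaturases were thus higher in every Tfh_OTII library than in any Th1_Vitro library. Stard4 was at 37.7, 43.8 and 46.7 in Tfh_OTII, against 14.1, 24.3 and 23.9 in Th1_Vitro (1.04 ± 0.24, adjusted p = 0.00837, and 2.11 as deposited). Fdft1 was at 30.2, 34.4 and 43.6 in Tfh_OTII, against 13.2, 22.0 and 26.9 in Th1_Vitro (0.81 ± 0.27, adjusted p = 0.0471, and 1.87 as deposited). For all 4 the groups stayed apart, with Th1_Vitro replicate 1 the lowest library. Scd2 and Stard4 kept the call without each of the 6 libraries. Scd1 lost it without any replicate of Tfh_OTII or without Th1_Vitro replicate 1 (adjusted p up to 0.122). Fdft1 lost it without any library but Th1_Vitro replicate 3 (up to 0.158). With only these 2 groups fitted, Stard4 alone of the 4 kept its call (adjusted p = 0.0444), and Scd2, Scd1 and Fdft1 were at 0.0512, 0.122 and 0.124. After scaling, 5 of 8 B cell genes and 1 of 6 dendritic cell genes were lower in Tfh_OTII, and 3 of 7 T cell genes and 1 of 12 macrophage genes higher. As deposited, 0 B cell genes were lower and 6 of 7 T cell genes higher. Their part in these results was not tested.

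Fasn and Acaca, the pair of enzymes that build the saturated chain, lay the other way after scaling. Fasn was at 23.4, 27.5 and 34.2 scaled TPM in Tfh_OTII, against 65.8, 47.2 and 166 in Th1_Vitro, a log2 difference of -1.49 ± 0.40 (adjusted p = 0.0192), and -0.39 as deposited, where it did not pass. Acaca was at 29.0, 38.7 and 39.4 in Tfh_OTII, against 56.0, 69.0 and 83.2 in Th1_Vitro, a difference of -0.93 ± 0.24 (adjusted p = 0.0148), but 0.17 as deposited. So the sign for Acaca depended on the scale, while the ratio of Scd2 to Acaca did not. Fasn lost its call without Tfh_OTII replicate 1 or 2 (adjusted p up to 0.0669) and Acaca without Tfh_OTII replicate 1 (0.0548), and with only these 2 groups fitted they were at 0.0528 and 0.0520. Elovl6 was at 10.7, 11.4 and 10.8 in Tfh_OTII, against 8.58, 8.73 and 4.52 in Th1_Vitro, and passed as deposited alone (1.55, adjusted p = 0.000240).

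Tfh_TILS against Th1_Vitro gave 0 genes called in the same direction on both scales, where 11.0% of all genes tested on both rose and 0.594% fell. Tissue, sort and culture differ between these groups too and cannot be told apart. After scaling, 14 of 30 were called lower and 0 higher, where 7.67% of all genes were lower and 10.8% higher. Among the 12460 genes with a group mean of at least 5 scaled TPM, 1879 were lower and 1947 higher, again larger shares. As deposited, 9 of 30 were called higher and 0 lower, where the shares were 49.3% and 0.601%. All 30 scaled differences were below 0, with a median of -0.788, against 0.110 over all genes, and as deposited the median was 0.367, against 0.872 over all genes. On either scale, then, the median of the 30 lay below that of all genes. By role, 4 of 7 genes up to squalene, 3 of 10 beyond it, 3 of 5 regulators, Acat2 of the transport and supply genes and 3 of 6 fatty acid genes were called lower after scaling.

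Fasn had the lowest scaled difference against Th1_Vitro, -1.86 ± 0.40 (adjusted p = 0.00761), from 27.2, 13.5 and 26.7 scaled TPM in Tfh_TILS and 65.8, 47.2 and 166 in Th1_Vitro. As deposited it was -0.67 and did not pass. Fdps was at 35.0, 73.0 and 80.0 in Th1_Vitro, above all 3 tumour libraries (-1.57 ± 0.32, adjusted p = 0.00557, or -0.39 as deposited). Mvk was at 7.11, 8.23 and 17.3 in Th1_Vitro (-1.48 ± 0.31, or -0.46 as deposited). Fasn, Fdps and Mvk did not overlap between the groups. For Scd2 the difference was -1.51 ± 0.46, with Th1_Vitro replicate 1, at 9.26, inside the Tfh_TILS range, and it lost the call without any library but Th1_Vitro replicate 1 (adjusted p up to 0.123). Sqle was at 29.6, 38.1 and 29.3 in Th1_Vitro, apart from every tumour library (-1.34 ± 0.25, adjusted p = 0.00368, or -0.19 as deposited).

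Scap, the escort of the SREBP proteins, was at 10.6, 13.0 and 18.1 scaled TPM in Tfh_TILS, against a wide spread of 40.8, 23.0 and 64.0 in Th1_Vitro (-1.46 ± 0.35, adjusted p = 0.0119, or -0.30 as deposited). Srebf1 was at 34.6, 29.9 and 46.9 in Th1_Vitro (-0.98 ± 0.24, adjusted p = 0.0142), but its difference as deposited was 0.19. All 3 Th1_Vitro libraries lay above the tumour libraries for both genes. Insig1 was at 28.7, 47.9 and 24.4 in Th1_Vitro (-0.82 ± 0.25, adjusted p = 0.0391), but 0.34 as deposited. Pmvk was at 10.5, 18.2 and 25.4 in Th1_Vitro (-1.08 ± 0.29), and 0.02 as deposited. These 3 genes thus changed sign with the scale. Insig1 lost its call without any replicate of Tfh_TILS or without Th1_Vitro replicate 2 (adjusted p up to 0.113), and Pmvk without replicate 3 of Tfh_TILS or of Th1_Vitro (up to 0.0640). Srebf2, at 55.2, 38.2 and 96.6, and Insig2, at 19.5, 13.2 and 13.0, overlapped with Tfh_TILS and did not pass after scaling. Hmgcs1, at 33.4, 65.3 and 53.6, and Idi1, at 45.4, 93.0 and 42.5 in Th1_Vitro, overlapped as well.

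The remaining genes called lower after scaling were Acat2, Acly, Mvd, Tm7sf2 and Hsd17b7, at -1.36, -1.24, -1.20, -1.16 and -1.11, and at -0.32, -0.04, -0.18, -0.10 and -0.08 as deposited. Hsd17b7, a reductase late in the pathway, was at 5.38, 2.17 and 4.29 scaled TPM in Tfh_TILS and 10.7, 10.3 and 7.23 in Th1_Vitro, and Tm7sf2 at 10.2, 9.79 and 17.5 in Th1_Vitro. The 9 genes called higher as deposited were Stard4, Elovl6, Acaca, Dhcr7, Msmo1, Sc5d, Nsdhl, Ebp and Idi1, at 0.65 to 0.99, which is close to the 0.872 of the median gene. Without Tfh_TILS replicate 2 or 3 the scaled count lower was 9. With only these 2 groups fitted it was 2, Sqle and Acly (adjusted p = 0.0463 and 0.0493), the other 12 running from 0.0501 for Fdps to 0.140 for Scd2. Hsd17b7 lost its call without Tfh_TILS replicate 2 (adjusted p = 0.0614), Acat2 without replicate 2 or 3 of either group (up to 0.0929) and Mvd without any library but Th1_Vitro replicate 1 (up to 0.0748). After scaling, 8 of 12 macrophage and 2 of 6 dendritic cell genes were higher in Tfh_TILS. In the same comparison 2 of 8 B cell genes and 1 of 2 CD8 T cell genes were lower. The part of such cells was not tested.

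**Figure D5:**
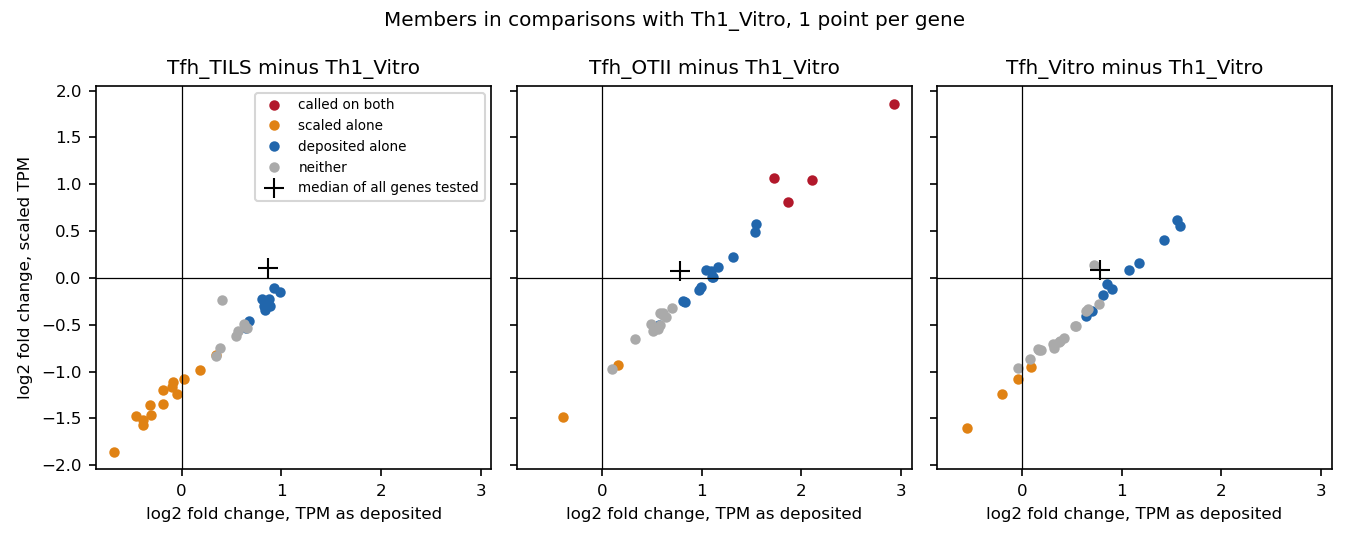
Log2 difference of each of the 30 genes against Th1_Vitro as deposited (x axis) and after scaling (y axis), for Tfh_TILS, Tfh_OTII and Tfh_Vitro. The cross is the median of all genes tested. The 4 red points in the Tfh_OTII panel, Scd2, Stard4, Scd1 and Fdft1, are the genes called on both scales.

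Tfh_Vitro against Th1_Vitro compares the 2 wild-type cultures, and again gave 0 genes called on both scales, where 9.31% of all genes rose and 0.548% fell. The cultures differ in cytokines and in the antibodies against IFNγ and TGFβ, which cannot be told apart. After scaling, 4 of 30 were called lower and 0 higher, where 5.59% of all genes were lower and 9.14% higher, and as deposited 0 lower and 10 higher, where the shares were 0.511% and 41.1%. Fasn was at 31.8, 24.4 and 21.9 scaled TPM in Tfh_Vitro, against 65.8, 47.2 and 166 in Th1_Vitro (-1.61 ± 0.40, adjusted p = 0.0178, or -0.55 as deposited). Sqle was at 16.5, 14.5 and 13.2 in Tfh_Vitro, against 29.6, 38.1 and 29.3 in Th1_Vitro (-1.08 ± 0.25, adjusted p = 0.0127, or -0.04 as deposited). Both genes were apart between the groups, Sqle with little spread within either. Scap was at 17.9, 13.2 and 17.4 in Tfh_Vitro, against 40.8, 23.0 and 64.0 in Th1_Vitro (-1.24 ± 0.35, adjusted p = 0.0298, or -0.21 as deposited). Insig1 was at 16.3, 16.8 and 15.6 in Tfh_Vitro, against 28.7, 47.9 and 24.4 in Th1_Vitro (-0.95 ± 0.25, adjusted p = 0.0242), but 0.09 as deposited. Without replicate 2 or replicate 3 of Tfh_Vitro 0 genes were called lower, without Tfh_Vitro replicate 1 there were 2, and without Th1_Vitro replicate 1 there were 10. The highest adjusted p with a library left out was 0.0740 for Fasn, 0.0602 for Sqle, 0.121 for Scap and 0.0845 for Insig1. With only these 2 groups fitted, Sqle alone was called (adjusted p = 0.0228), and Fasn, Scap and Insig1 were at 0.0527, 0.0644 and 0.0659. After scaling, 3 of 8 B cell genes were lower and 1 of 7 T cell genes higher in Tfh_Vitro, and their part was not tested.

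The desaturases and the elongase did not follow Fasn between these 2 cultures. Scd2 was at 52.4, 37.9 and 32.5 scaled TPM in Tfh_Vitro and 9.26, 46.7 and 43.7 in Th1_Vitro, with a 95% interval of the log2 difference from -0.45 to 1.56. Scd1 was at 1.85, 1.91 and 1.84 in Tfh_Vitro and 0.430, 2.72 and 2.35 in Th1_Vitro, with an interval from -0.60 to 0.87. Elovl6 was at 12.6, 10.7 and 10.7 in Tfh_Vitro and 8.58, 8.73 and 4.52 in Th1_Vitro, apart but not past the test after scaling (0.62 ± 0.25, adjusted p = 0.108). Of the others, Acaca, at 37.9, 40.7 and 43.1 in Tfh_Vitro and 56.0, 69.0 and 83.2 in Th1_Vitro, came closest to a call after scaling with Tm7sf2 and Mvk (adjusted p = 0.0541, 0.0511 and 0.0558). The sign for Acaca and Tm7sf2 turned to 0.32 and 0.19 as deposited. The 3 comparisons with Th1_Vitro share its libraries, so their differences are not independent of each other.

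Genes around the pathway were read from further lists, and their counts in Tfh_TILS against Tfh_OTII stand beside the 8.56% of all genes that fell and the 7.47% that rose. In Tfh_TILS against Tfh_OTII, 1 of the 12 tested genes that elongate or desaturate fatty acids fell, Fads2, a desaturase of polyunsaturated fatty acids, at 0.761, 1.09 and 0.971 scaled TPM in Tfh_TILS, against 4.09, 4.90 and 6.46 in Tfh_OTII (log2 fold change -1.65 ± 0.28, adjusted p = 0.00193). Fads2 also rose in Tfh_OTII against Tfh_Vitro, where it was at 1.32, 1.44 and 1.46 (1.33 ± 0.28, adjusted p = 0.0276). It rose too against Th1_Vitro on both scales (1.35 after scaling and 1.98 as deposited). It thus lay highest in the same 3 libraries as Scd2 and Scd1. Slc25a1, the carrier that brings citrate out of mitochondria for Acly, was at 8.96, 10.2 and 9.92 in Tfh_TILS, against 21.1, 32.1 and 36.9 in Tfh_OTII (-1.50 ± 0.28, adjusted p = 0.00311). It also fell in Tfh_TILS against Th1_Vitro on both scales (-2.11 after scaling and -0.95 as deposited), where it was at 35.2, 37.5 and 68.7. It was the single gene of 10 in precursor supply to fall against Tfh_OTII. For both lists, 1 gene is near the share of all genes that fell.

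Of 17 genes of fatty acid oxidation, 7 fell and 1 rose in Tfh_TILS against Tfh_OTII, with a median of -0.779, where 8.56% of all genes fell and 7.47% rose and their median was 0.00194. Acadl, a long-chain acyl-CoA dehydrogenase, was at 20.3, 57.1 and 24.7 scaled TPM in Tfh_TILS, against 109, 135 and 163 in Tfh_OTII (-2.09 ± 0.35, adjusted p = 0.00172). Etfb and Hadh, which act further along the same route, fell by 1.90 and 1.67. Slc25a20, the carnitine carrier of the mitochondrial membrane, rose, at 90.0, 58.3 and 40.7 in Tfh_TILS, against 18.5, 20.2 and 18.6 in Tfh_OTII (1.60 ± 0.26, adjusted p = 0.00148). In Tfh_OTII against Th1_Vitro, 7 of the 17 were called higher after scaling, where 12.7% of all genes were, and 12 of the 17 as deposited, where 42.7% of all genes were. The highest scaled differences were those of Acadl at 2.63, Hadh at 1.56 and Acadm at 1.47, and these 3 rose on both scales. As deposited, 6 of the 17 fell and 1 rose in Tfh_TILS against Tfh_OTII.

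Of 13 isoprenoid genes, Coq2, Rabggtb and Nus1 fell in Tfh_TILS against Tfh_OTII, by 1.12, 1.19 and 0.93, and 0 rose, where 8.56% of all genes fell and 7.47% rose. Of 12 genes of sterol uptake, transport and esterification, Scarb1, a lipoprotein receptor, fell by 1.15 and Stard5, another sterol carrier, rose by 0.97. Of 8 oxysterol and LXR target genes, Smpdl3a rose, at 8.08, 13.0 and 7.55 in Tfh_TILS, against 4.47, 2.71 and 1.37 in Tfh_OTII (1.50 ± 0.31, adjusted p = 0.00641). Abca1, the cholesterol exporter, rose in Tfh_TILS against Th1_Vitro on both scales (1.22 and 1.84), where it was at 2.27, 5.63 and 2.76 in Tfh_TILS and 0.669, 0.986 and 0.960 in Th1_Vitro. Macrophages express Abca1 and Smpdl3a too, and both were highest in Tfh_TILS replicate 2, the library with the macrophage sum of 583. The part of such cells in these rises was not tested. None of the 10 genes of SREBP processing and turnover passed in Tfh_TILS against Tfh_OTII. Of 13 genes of fatty acid activation and glycerolipid synthesis, Lpin1 fell by 1.34 while Dgat1 and Acsl1 rose by 1.77 and 0.73, and as deposited Lpin1 alone passed. Dgat1 was at 12.0, 101 and 28.1 in Tfh_TILS, highest in replicate 2, against 7.48, 11.8 and 8.08 in Tfh_OTII. The part of macrophages in this rise was not tested either. Of 4 tested genes of oxysterol synthesis and sensing, Gpr183, the oxysterol receptor that positions lymphocytes, was lower after scaling in Tfh_TILS, Tfh_OTII and Tfh_Vitro than in Th1_Vitro (-1.30, -1.04 and -1.07), and near 0 as deposited (-0.11, 0.06 and -0.02).

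Some of these genes share sequence with others, so that reads could be divided between them. Counted in words of 31 bases over GENCODE M21 transcripts, Acat2 shared 43.7% with other genes, all of it with Acat3, Acaca 33.5%, Fdft1 31.9%, Fdps 27.9% and Idi1 27.1%. Of the words of Fdft1, 17.6% also occur in its neighbour Ctsb. Values of these 5 are the more uncertain for it. Scd2 and Scd1 shared 6.81% and 8.18%, most of it with Scd3. Pmvk, Mvd, Nsdhl, Ebp, Insig2, Acly and Fasn shared none.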

How the data were processed

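The deposited values are TPM per gene symbol, 1 file per library. Per the submitters' processing notes, reads were quantified with kallisto on mm10. The version and annotation are not given in the sources used here. Per the labels' protocols, 300000 CD4+ T cells gave RNA for stranded, ribosome-depleted libraries read as pairs of 75 bases. Titles set the groups. No source says whether replicates came from separate animals or cultures, so p-values reflect the variation among libraries alone, and that may be technical.

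The TPM were divided by median-of-ratios size factors from 17585 genes above 0 in all 12 libraries. Genes with a group mean of at least 1 (21946) were fitted with limma 3.58.1 (R 4.3.3, trend) on log2(scaled TPM + 1), with 1 mean per group over 12 libraries, for 6 contrasts. Fold changes on this scale understate changes of low genes. As deposited, 23308 genes were tested. Errors are moderated SE. Simulated data were used to check the fit. Tables and figures used Python 3.11.15, pandas 2.3.3 and matplotlib 3.10.9.

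Values in every library are given for 13 pathway genes chosen by role and for called genes with the 5 highest and 5 lowest fold changes of a comparison. Other genes are given by ranges. From the other lists up to 3 called genes a direction may be named. The genes, lists and rules were chosen with earlier results of these data known. Positions follow GENCODE M21 on GRCm38 and promoters RefSeq. Alternatives were the deposited scale, trimmed-mean scaling, other filters and pseudocounts, fits of 2 groups, a replicate block and leaving out each library.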

Additional observations from a re-analysis of the deposited data

How the results depend on the processing

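As deposited, members higher and lower numbered 9 and 0 in Tfh_TILS against Th1_Vitro (0 and 14 after scaling), 17 and 0 in Tfh_OTII against Th1_Vitro (4 and 2) and 10 and 0 in Tfh_Vitro against Th1_Vitro (0 and 4). Signs turned as deposited for Pmvk, Srebf1 and Insig1 in Tfh_TILS against Th1_Vitro (0.0244, 0.186 and 0.344), Acaca in Tfh_OTII against Th1_Vitro (0.167) and Insig1 in Tfh_Vitro against Th1_Vitro (0.087). In these comparisons the median difference of all genes tested was also higher as deposited than after scaling. The Scd2 call in Tfh_TILS against Tfh_Vitro (1) was 0 with trimmed-mean scaling, with the pseudocount of 0.1 and with no filter. Higher genes in Tfh_OTII against Th1_Vitro were 2 with trimmed-mean scaling and 2 with no filter, both without Scd1 and Fdft1, and 1 with only these 2 groups, Stard4, where Scd2 was at an adjusted p of 0.0512. Fits of only the 2 groups also gave 2 lower in Tfh_TILS against Th1_Vitro, 0 lower in Tfh_OTII against Th1_Vitro, 1 lower in Tfh_Vitro against Th1_Vitro and 3 higher in Tfh_OTII against Tfh_Vitro. The filter at 5 TPM gave 7 lower in Tfh_Vitro against Th1_Vitro, where 1380 of 12460 genes were lower. The causes of these changes were not tested.

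Leaving out each library gave 5 to 8 lower in Tfh_TILS against Tfh_OTII, 0 to 1 in Tfh_TILS against Tfh_Vitro, 9 to 16 in Tfh_TILS against Th1_Vitro and 0 to 10 in Tfh_Vitro against Th1_Vitro, and 2 to 4 higher with 0 to 4 lower in Tfh_OTII against Th1_Vitro. Lowest counts came without replicate 2 or 3 of either group in Tfh_TILS against Tfh_OTII (5 each), replicate 2 or 3 of Tfh_TILS against Th1_Vitro (9 each) and replicate 2 or 3 of Tfh_Vitro against Th1_Vitro (0 each). In Tfh_OTII against Th1_Vitro the higher count was 2 without any Tfh_OTII replicate or Th1_Vitro replicate 1, and the lower count 0 without Tfh_OTII replicate 1. Of 34 called values, 15 kept the call without each library, 8 under every alternative but the deposited scale and 6 under that too, with 0 reversals from leaving out a library. With the replicate number as a block, Tfh_OTII against Th1_Vitro gave 2 higher, 29 of 34 calls held, and no other count moved by over 1.5 times. Deviations of libraries of the same number from their group means had correlations from -0.456 to 0.285. They were positive for each number between Tfh_OTII and Th1_Vitro (0.176, 0.0287 and 0.285). Such values cannot show whether libraries of the same number shared an animal or a batch.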
